A study of Homo sapiens with 4 samples.

Results

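The HSP90 chaperones and co-chaperones examined here were 9 genes chosen by name: the cytosolic chaperones HSP90AA1 and HSP90AB1, their mitochondrial relative TRAP1, and the co-chaperones STIP1, CDC37, PTGES3, AHSA1, FKBP4 and FKBP5. All 9 were present once in the table of 63856 genes and all 9 were among the 15830 genes with enough counts to be tested. RNA-seq was done on the human mammary epithelial line MCF10A, which does not form tumors, as unmodified cells (WT) and as cells transduced with a lentivirus of the pLVX-Puro plasmid carrying HSF1 cDNA and selected with puromycin (HSF1-pLVX), with 2 libraries of each. Both variants grew in medium that contained hydrocortisone, EGF, insulin, cholera toxin and horse serum, of which the paper does not name cholera toxin. No empty-vector library was analysed here, and whether the transduced cells were a clone or a pool is not given in the sources used here, so the effects of HSF1, of transduction and of selection cannot be told apart.

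HSP90 is a dimeric ATPase that binds partly folded client proteins, among them many protein kinases and the steroid hormone receptors. HSP90AA1 encodes the form known to be induced by stress and HSP90AB1 the constitutive form, and both are classical target genes of heat shock factor 1. Co-chaperones set the pace of the cycle: STIP1 (HOP) links HSP90 to HSP70, CDC37 delivers kinases, AHSA1 stimulates the ATPase, PTGES3 (p23) stabilises the closed state, and the immunophilins FKBP4 (FKBP52) and FKBP5 (FKBP51) act on steroid receptor complexes.

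The libraries held from 18688109 to 24184285 counts. HSF1 itself was at 200.1 and 188.9 CPM in the WT libraries and at 980.9 and 997.1 CPM in the HSF1-pLVX libraries, where CPM are TMM-normalized counts per 1000000 counts of the library and the counts do not separate introduced from endogenous transcripts. Its fold change was 5.08 (adjusted p = 1.14e-10, quasi-likelihood F test of edgeR, Benjamini-Hochberg adjusted over all tested genes, as for all adjusted p-values here). All 10 genes listed as mammary epithelial markers were detected. Their summed level was 13782 and 13695 CPM in WT cells against 8576 and 9120 CPM in HSF1-pLVX cells. KRT17 held the largest part of the WT sum and fell from a mean of 7182.6 to 1217.7 CPM. Of the 10 genes, 5 were called lower and 5 higher. Besides KRT17, those called lower were KRT14 (529.3 to 45.1 CPM), KRT18 (1635.6 to 491.5 CPM), CDH1 (852.8 to 317.2 CPM) and EPCAM (194.2 to 75.5 CPM). Among those called higher were KRT5 (2109.8 to 4584.3 CPM) and TP63 (9.67 to 107.7 CPM). The lower sum was thus not a fall of all 10 genes. Of all tested genes, 32.7% were called higher and 33.2% lower. The summed level of 8 fibroblast markers was 7.87 to 10.9 CPM in WT and 13.9 to 15.0 CPM in HSF1-pLVX cells. Of the 8, 2 had enough counts to be tested. DCN (decorin) was at 1 and 3 counts in WT and 94 and 87 counts in HSF1-pLVX libraries. COL1A1 had a log2 fold change of 0.19 and was not called (adjusted p = 0.353). The summed level of 3 leukocyte markers was at most 0.269 CPM in any library, with 2 of the 3 at 0 in all libraries. The share of counts from the mitochondrial genome was 7.54 to 8.48% in WT and 9.84 to 11.0% in HSF1-pLVX libraries. The part of these differences in the results below was not tested, and in bulk RNA fewer cells of a type and less RNA per cell cannot be told apart.

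Of the 9 genes, 7 rose in HSF1-pLVX cells, 1 fell (HSP90AA1) and 1 (CDC37) did not pass the threshold at an adjusted p of 0.05. The difference between the variants was widespread, since 65.9% of all tested genes were called, 32.7% higher and 33.2% lower, so a call alone says little about this group. The 2 groups of libraries did not overlap in any of the 9 genes, 8 of which were higher and 1 lower, as held upwards for 42.1% of tested genes and downwards for 41.0%. FKBP5 and TRAP1 rose more than 2-fold, a size and call reached upwards by 14.9% of tested genes and downwards by 14.0%. For the 9 genes the median log2 fold change stood at 0.42, against 0.02 over all tested genes. Summed over the 9 genes, the level was 3940 and 3606 CPM in the WT libraries and 4847 and 4952 CPM in the HSF1-pLVX libraries. The groups do not overlap, and the ratio of the means was 1.30 (exact permutation test over libraries, two-sided, p = 0.33, the smallest value that 2 against 2 libraries allow).

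**Figure D1:**
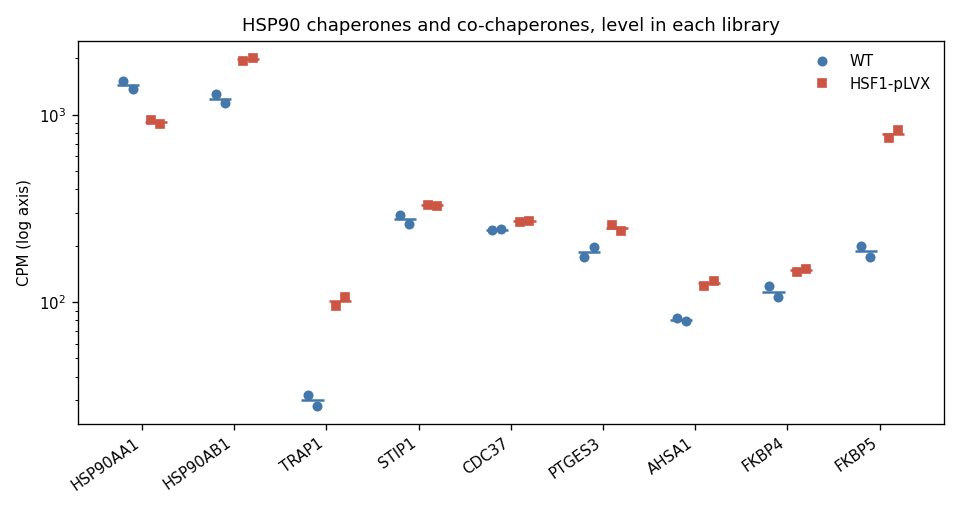
Level of each gene in each library, in CPM on a log axis, with WT libraries as circles, HSF1-pLVX libraries as squares and horizontal lines at the means. HSP90AA1 is the gene whose HSF1-pLVX libraries lie below the WT libraries, at 892 and 935 against 1367 and 1507 CPM, while FKBP5 and TRAP1 show the widest gaps upwards.

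The cytosolic HSP90 genes moved in opposite directions. HSP90AA1 (ENSG00000080824.18, chromosome 14 of hg38, 102080738 to 102139699, minus strand) was at 1507 and 1367 CPM in WT cells and at 934.8 and 892.3 CPM in HSF1-pLVX cells. Both HSF1-pLVX libraries were below both WT libraries. The log2 fold change (± SE) was -0.65 ± 0.104, a fold of 0.636 with a 95% interval of 0.545 to 0.742 (adjusted p = 6.97e-05). HSP90AB1 (ENSG00000096384.19, chromosome 6, 44246166 to 44253888, plus strand) was at 1290 and 1149 CPM in WT cells and at 1946 and 2009 CPM in HSF1-pLVX cells. Here both HSF1-pLVX libraries were above both WT libraries. Its log2 fold change (± SE) was 0.70 ± 0.108, a fold of 1.62 with an interval of 1.38 to 1.90 (adjusted p = 5.2e-05). In size, neither change stood out from the comparison as a whole, because 45.7% of tested genes had a larger absolute log2 fold change than HSP90AA1 and 43.2% a larger one than HSP90AB1.

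Per kilobase of counted gene length, HSP90AA1 made up 39.9 and 40.3% of the summed cytosolic HSP90 transcripts in the WT libraries and 21.4 and 20.1% in the HSF1-pLVX libraries. The share of the stress-inducible form was thus 40.1% ± 0.31 in WT and 20.8% ± 0.91 in HSF1-pLVX cells (mean ± SD, n = 2, exact permutation test, two-sided, p = 0.33, the smallest value possible). The sum of both genes changed less than its parts: it was 720.1 and 645.9 CPM per kb in WT and 831.3 and 844.2 CPM per kb in HSF1-pLVX cells, a ratio of 1.23 between the means. In CPM without division by length, the sum was 2797.2 and 2515.4 in WT and 2881.3 and 2901.4 in HSF1-pLVX cells, a ratio of 1.09. Without division by length the shares were 54.1% ± 0.32 and 31.6% ± 1.19 (SD, n = 2), so which form prevailed in WT cells depended on the length correction, while the lower HSP90AA1 share in HSF1-pLVX cells did not. Both genes have processed pseudogenes, whose reads the counting could have split. The 5 HSP90AA1 pseudogenes in the table held 0.911 to 1.14% as many counts as the gene and the 6 HSP90AB1 pseudogenes 0.515 to 0.588%. Counts of each gene summed with its pseudogenes gave the same calls.

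**Figure D2:**
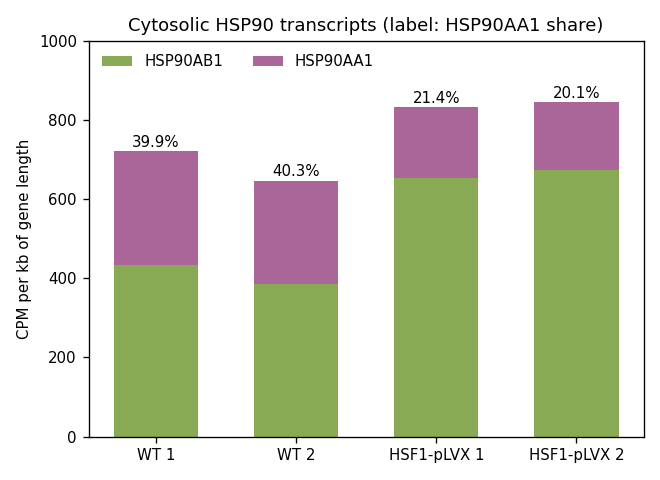
Stacked bars of HSP90AB1 and HSP90AA1 in CPM per kb of gene length for each library, with the HSP90AA1 share of their sum printed above each bar. The share is 39.9 and 40.3% in the WT libraries and 21.4 and 20.1% in the HSF1-pLVX libraries, while the height of the bars differs by a ratio of 1.23 between the group means.

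HSF1 binds heat shock elements, arrays of inverted GAA units, and the stretches upstream of the RefSeq start sites of HSP90AA1 and HSP90AB1 are shown because they hold such arrays. The sequences are from RefSeq on GRCh38.p14, on the strand of the gene, and hold no exon bases of GENCODE release 44, so that of HSP90AA1 runs from position -250 to -1 and that of HSP90AB1 from -250 to -78, counted from the base before the start site as -1. Capitals mark every match to GAANNTTC or TTCNNGAA, which each read the same on both strands, and a pair of overlapping matches forms 3 units (GAA and TTC in turn, 2 bases apart, on either strand).
HSP90AA1, chr14:102087045-102087294, minus strand: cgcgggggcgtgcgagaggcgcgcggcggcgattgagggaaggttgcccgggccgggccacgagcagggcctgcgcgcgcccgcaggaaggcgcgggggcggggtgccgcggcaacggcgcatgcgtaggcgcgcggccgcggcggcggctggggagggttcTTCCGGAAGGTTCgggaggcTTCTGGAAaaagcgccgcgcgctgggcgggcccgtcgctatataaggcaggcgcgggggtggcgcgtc
HSP90AB1, chr6:44247693-44247865, plus strand: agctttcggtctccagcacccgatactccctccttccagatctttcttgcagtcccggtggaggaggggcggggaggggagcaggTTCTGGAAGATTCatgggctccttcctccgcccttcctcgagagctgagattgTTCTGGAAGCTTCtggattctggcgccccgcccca
Both stretches lie inside the counted span of their gene, since other transcripts start further upstream, and outside its exons. In HSP90AA1 a match of 3 units lay at positions -88 to -76 and one of 2 units at -68 to -61. In HSP90AB1 matches of 3 units lay at -165 to -153 and at -112 to -100. The table of promoters, from 250 bases before to 50 after each start, gave 14 start sites for 8 of the 9 genes. Matches of 3 units were found at these 2 sites, and 0.49% of all 35093 promoter windows held one. STIP1 had a match of 2 units just after one of its start sites, and 13.5% of all windows held a match of 2 units. The windows of TRAP1, AHSA1, PTGES3, CDC37 and FKBP5, and those of the other start sites of HSP90AA1 and HSP90AB1, held no match, which says only that these letters are absent from them.

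HSP90B1, the endoplasmic reticulum paralog (GRP94), is not one of the 9 genes and was examined beside them. It was at 978.9 and 966.1 CPM in WT and 797.2 and 812.6 CPM in HSF1-pLVX cells. Its log2 fold change (± SE) was -0.27 ± 0.0972 (adjusted p = 0.023), and the call was lost with upper-quartile scaling (-0.19, adjusted p = 0.101), with the replicate number as a block (-0.27, adjusted p = 0.107), without WT replicate 1 (-0.25, adjusted p = 0.0829), without HSF1-pLVX replicate 1 (-0.25, adjusted p = 0.0903) and without HSF1-pLVX replicate 2 (-0.28, adjusted p = 0.109).

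TRAP1, the HSP90 of the mitochondrial matrix, rose with a larger fold change than HSP90AB1, and their 95% intervals did not overlap. TRAP1 (ENSG00000126602.10, chromosome 16, 3651639 to 3717597, minus strand) was at 31.91 and 27.73 CPM in WT cells and at 95.21 and 106.3 CPM in HSF1-pLVX cells. Every HSF1-pLVX value was well above every WT value. The log2 fold change (± SE) was 1.76 ± 0.0977, a fold of 3.38 with an interval of 2.92 to 3.90 (adjusted p = 1.51e-09), and 5.45% of tested genes were called higher with a change at least as large. Of its 5227 counted bases, 1531 overlap exons of DNASE1 on the opposite strand. DNASE1 held 401 to 554 counts per library and TRAP1 516 to 2394, and since the strand setting of the counting is not stated, reads of the shared stretch cannot be assigned to either gene.

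Other proteins of the mitochondrial folding and quality system, from a list of 10 genes, were higher in 4 of 9 tested cases (44.4%) and lower in 1 (11.1%), beside 32.7 and 33.2% of all tested genes, with a median log2 fold change of 0.09. HSPD1 and HSPE1, the mitochondrial chaperonin and its co-chaperonin, had log2 fold changes of 1.84 and 1.23 (standard errors 0.0941 and 0.0958). LONP1, a matrix protease, had one of 1.40 and HSPA9, the matrix HSP70, one of 1.06, with standard errors of 0.0909 and 0.0963. The largest adjusted p of these 4 genes was the 2.56e-07 of HSPA9. CLPP, a matrix protease subunit chosen here after its value was seen because it was the gene that fell, had a log2 fold change of -0.27, and it was not called with upper-quartile scaling (-0.19, adjusted p = 0.063), without WT replicate 1 (-0.21, adjusted p = 0.0928), without HSF1-pLVX replicate 1 (-0.25, adjusted p = 0.0755) or without HSF1-pLVX replicate 2 (-0.28, adjusted p = 0.0887).

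Among the co-chaperones of the early, client-loading steps the changes were small. STIP1 (ENSG00000168439.16, chromosome 11, 64185272 to 64204543) was at 291.7 and 260.1 CPM in WT and at 329.1 and 326.7 CPM in HSF1-pLVX cells. The groups did not overlap, but the WT libraries differed from each other by nearly as much as the nearer one did from HSF1-pLVX cells. Its log2 fold change (± SE) was 0.25 ± 0.0938 (adjusted p = 0.0302), and the call was lost in 6 alternatives, among them 0.15 (adjusted p = 0.282) without WT replicate 2, 0.25 (adjusted p = 0.0915) without HSF1-pLVX replicate 1 and 0.26 (adjusted p = 0.159) without HSF1-pLVX replicate 2. With the replicate number as a block the log2 fold change was 0.25 (adjusted p = 0.0607). CDC37 (ENSG00000105401.8, chromosome 19, 10391134 to 10420121) was at 241.7 and 245.0 CPM in WT and at 267.3 and 271.9 CPM in HSF1-pLVX cells. Its log2 fold change of 0.15 had a 95% interval from -0.04 to 0.34 (adjusted p = 0.153), and it was 0.23 (adjusted p = 0.029) under upper-quartile scaling and 0.21 (adjusted p = 0.0435) under library size alone.

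Among the co-chaperones of the ATPase cycle both genes rose. PTGES3 (ENSG00000110958.15, chromosome 12, 56663341 to 56688408) was at 173.8 and 197.9 CPM in WT and at 258.6 and 239.5 CPM in HSF1-pLVX cells, a log2 fold change (± SE) of 0.42 ± 0.0959 (adjusted p = 0.00137). Its 5 pseudogenes held 2.04 to 2.88% as many counts as the gene. AHSA1 (ENSG00000100591.7, chromosome 14, 77457870 to 77469474) was at 81.86 and 78.78 CPM in WT and at 121.4 and 130.0 CPM in HSF1-pLVX cells. In neither gene did the groups overlap. For AHSA1, the activator of the ATPase, the log2 fold change (± SE) was 0.65 ± 0.0855, a fold of 1.56 with an interval of 1.38 to 1.78 (adjusted p = 1.18e-05).

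The immunophilins FKBP4 and FKBP5, which share their domain plan and compete for steroid receptor complexes, had log2 fold changes whose 95% intervals did not overlap, at 0.18 to 0.58 for FKBP4 and 1.84 to 2.30 for FKBP5. FKBP4 (ENSG00000004478.7, chromosome 12, 2794953 to 2805423) was at 121.3 and 105.9 CPM in WT and at 144.7 and 151.0 CPM in HSF1-pLVX cells. Its log2 fold change (± SE) was 0.38 ± 0.0924 (adjusted p = 0.00226), and without HSF1-pLVX replicate 2 it was 0.36 and no longer called (adjusted p = 0.0919). FKBP5 (ENSG00000096060.14, chromosome 6, 35573585 to 35728583) was at 200.0 and 174.7 CPM in WT and at 749.3 and 825.2 CPM in HSF1-pLVX cells. The HSF1-pLVX libraries were far above the WT libraries, and the spread within each variant was small beside that gap. Its log2 fold change (± SE) was 2.07 ± 0.107, a fold of 4.20 with an interval of 3.58 to 4.92 (adjusted p = 7.2e-10). Of all tested genes, 3.66% were called higher with a change at least as large. Per kilobase of gene length, FKBP5 was at 0.804 of the FKBP4 level in both WT libraries and at 2.52 and 2.66 times that level in the HSF1-pLVX libraries (exact permutation test, two-sided, p = 0.33, the smallest value possible). In CPM without division by length FKBP5 was above FKBP4 in both variants. Which of these genes was higher in WT cells thus depended on the length correction.

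**Figure D3:**
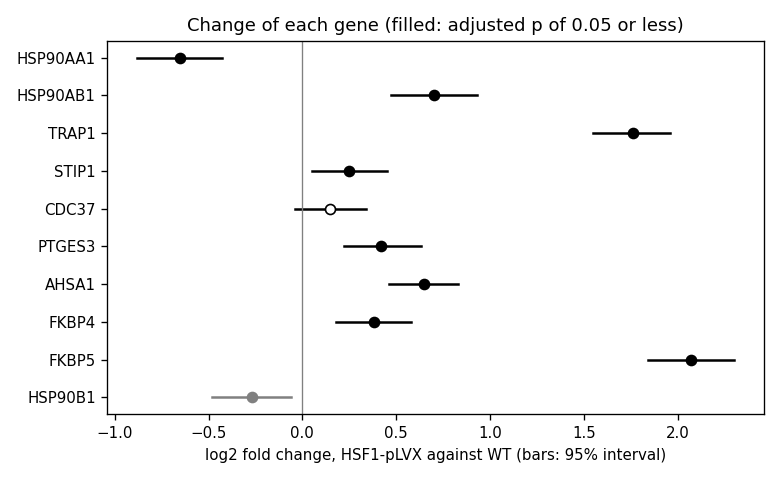
Log2 fold change of each of the 9 genes, and of HSP90B1 in grey, between HSF1-pLVX and WT cells, with 95% intervals as bars and filled points where the adjusted p was 0.05 or less. FKBP5 at 2.07 and TRAP1 at 1.76 lie apart from the other 7 members, which run from -0.65 for HSP90AA1 to 0.70 for HSP90AB1.

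Per kilobase of gene length, the order of levels in WT cells was HSP90AB1 (409 ± 33.5 CPM per kb), HSP90AA1 (274 ± 18.9), CDC37 (80.0 ± 0.767), STIP1 (59.2 ± 4.81), PTGES3 (54.7 ± 5.02), AHSA1 (27.2 ± 0.739), FKBP4 (21.9 ± 2.10), FKBP5 (17.6 ± 1.69) and TRAP1 (5.71 ± 0.566), given as mean and SD with n = 2. STIP1 and PTGES3 overlapped in their library values, and the other neighbours did not. In HSF1-pLVX cells FKBP5, at 74.1 ± 5.05 CPM per kb, moved from place 8 to place 4, where its library values overlapped those of PTGES3 (73.3 ± 3.98), and those of PTGES3 overlapped those of STIP1 (70.4 ± 0.36). On this scale the places of HSP90AB1, HSP90AA1 and CDC37 at the top and TRAP1 at the bottom were the same in both variants. The order depended on the length correction. In CPM without it, the WT means were 187.4 for FKBP5, 185.8 for PTGES3, 113.6 for FKBP4 and 80.32 for AHSA1. On that scale HSP90AA1, at 1436.9 CPM, was above HSP90AB1, at 1219.4 CPM, in WT cells.

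Set against the sum of HSP90AA1 and HSP90AB1 on the same per-length scale, the 6 cytosolic co-chaperones together stood at 36.6 and 40.0 per 100 HSP90 transcripts in the WT libraries and at 45.0 and 45.1 in the HSF1-pLVX libraries. FKBP5 carried most of this difference, with 2.61 and 2.54 per 100 in WT and 8.48 and 9.20 in HSF1-pLVX cells. AHSA1 was at 3.86 and 4.14 per 100 in WT and at 4.95 and 5.22 in HSF1-pLVX cells, and the groups did not overlap. For PTGES3 the groups overlapped on this per-length scale, at 7.10 and 9.02 per 100 in WT and 9.15 and 8.35 in HSF1-pLVX cells. For STIP1 and CDC37 the ratios of the group means were 0.969 and 0.90. The exact permutation p of these ratios was 0.67 for PTGES3 and 0.33 for the others, the smallest value that 2 against 2 libraries allow. The values per 100 depended on the length correction. In CPM without it, the sum of HSP90AA1 and HSP90AB1 had a ratio of 1.09 between the means. The folds of STIP1 and CDC37 were 1.19 and 1.11, so neither was below the ratio of that sum.

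**Figure D4:**
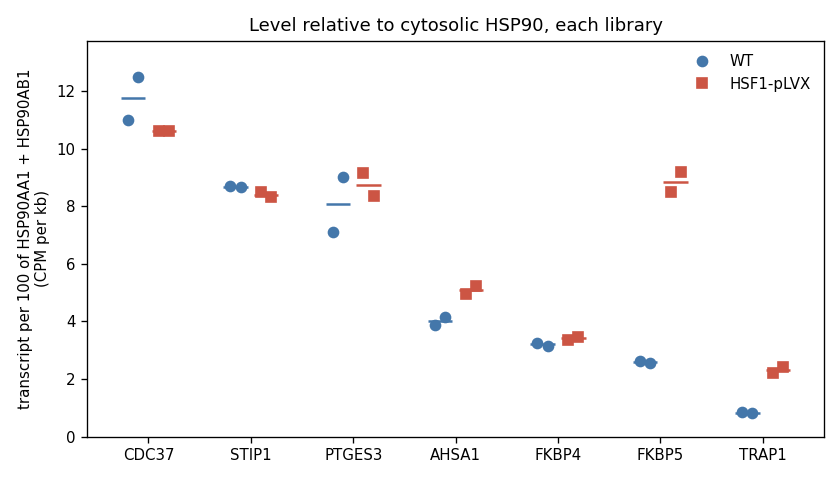
Level of each co-chaperone and of TRAP1 per 100 transcripts of HSP90AA1 plus HSP90AB1 in each library, all in CPM per kb of gene length, with lines at the group means. FKBP5 lies at 2.54 and 2.61 per 100 in WT and at 8.48 and 9.20 in HSF1-pLVX libraries, while STIP1 stays between 8.31 and 8.70 in all 4 libraries.

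The deposited normalized values, whose transformation is not stated and which were read as log2 values, gave the same directions for all 9 genes. The study's rule asks for a ratio above 2 or below 0.5 in both replicate pairs of these values. It was passed upwards by FKBP5, with ratios of 3.62 and 4.67, and by TRAP1, with 2.84 and 3.72, and 5.0% of the 22321 rows of that table passed it upwards and 6.42% downwards. The ratio of HSP90AA1 was 0.601 and 0.649 and that of HSP90AB1 1.46 and 1.74, so neither reached it.

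Beyond the 9 genes, other cytosolic HSP90 co-chaperones and HSP90-related factors were taken from a list of 32. Of the 28 tested, 13 were higher (46.4%) and 7 lower (25.0%), beside 32.7 and 33.2% of all tested genes, with a median log2 fold change of 0.16 that did not change when UNC45B, which had 0 counts in both WT libraries, was set at its lower bound. NASP, a histone chaperone that also binds HSP90, rose from 26.2 ± 0.266 to 137.4 ± 7.88 CPM (log2 fold change 2.39, standard error 0.091). AHSA2P, a relative of AHSA1, rose from 26.1 ± 4.16 to 86.5 ± 3.55 CPM (SD, n = 2 each), with a log2 fold change (± SE) of 1.73 ± 0.105. NUDCD2, which has the fold of p23, and ST13 (HIP), which acts between HSP70 and HSP90, rose by 0.91 and 0.90 on the log2 scale. The largest adjusted p of these 4 genes was 9.72e-07. Without HSF1-pLVX replicate 2, 10 genes were higher and 3 lower, and with upper-quartile scaling 15 and 4.

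The R2TP and TTT complexes work with HSP90 to assemble RNA polymerases, snoRNPs and kinases of the PI3K-like family. Of their 12 listed components and partners, all tested, 8 were higher (66.7%) and 1 lower (8.33%), beside 32.7 and 33.2% of all tested genes, with a median log2 fold change of 0.29. The AAA+ ATPases RUVBL1 and RUVBL2 rose from 34.6 ± 2.02 to 68.1 ± 2.59 CPM and from 61.5 ± 5.30 to 130.4 ± 7.26 CPM (SD, n = 2 each), with log2 fold changes of 0.98 and 1.08 and standard errors of 0.0878 and 0.0921. PIH1D1, a core subunit, rose by 0.81 (standard error 0.0895), and PDRG1, a subunit of the associated prefoldin-like module, was the gene that fell, with a log2 fold change (± SE) of -0.92 ± 0.108. The largest adjusted p of these 4 genes was the 3.57e-06 of PDRG1. With DESeq2 5 of these genes were called higher, and 5 likewise without HSF1-pLVX replicate 2.

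Of 17 heat shock genes outside the HSP90 system, 15 were tested, 7 were higher (46.7%) and 4 lower (26.7%), beside 32.7 and 33.2% of all tested genes, with a median log2 fold change of 0.07. HSPD1 and HSPE1, given above, and HSPA4L, an HSP110 family member, were higher, the last with a log2 fold change (± SE) of 1.22 ± 0.0967 (adjusted p = 6.05e-08). DNAJB4, an HSP40 family member, fell by 2.25 on the log2 scale, from 79.8 ± 7.31 to 16.8 ± 0.186 CPM (SD, n = 2 each, standard error 0.0974, adjusted p = 1.37e-10). HSPA8, the constitutive HSP70 that hands clients to HSP90, had a log2 fold change of -0.13 (adjusted p = 0.31) and is named after its value was seen. HSPA1A and HSPA1B, the stress-inducible HSP70 genes, were listed at 0 counts in all 4 libraries, and these zeros cannot be read as a lack of transcript. Of the 171 genes of the table within 1000000 bases of HSPA1A on chromosome 6, 146 were listed at 0 in all libraries, and so was TUBB, a tubulin gene of the same chromosome arm that dividing cells use. The table also lists 5637 genes on sequences outside the chromosomes, and how reads that map to several places were counted is not stated, so the part of the counting in these zeros was not tested. Without HSF1-pLVX replicate 2, 1 gene of the list was lower.

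FKBP5 is a known target gene of the glucocorticoid receptor, an HSP90 client, and both variants were grown with hydrocortisone. Of 15 other glucocorticoid response genes, all tested, 7 were higher (46.7%) and 3 lower (20.0%), beside 32.7 and 33.2% of all tested genes, with a median log2 fold change of 0.18. TSC22D3 (GILZ) rose from 21.7 ± 0.0315 to 161.1 ± 17.6 CPM (SD, n = 2 each) and had a log2 fold change (± SE) of 2.89 ± 0.103. METTL7A, a methyltransferase, and the transcription factors CEBPD and ZBTB16 rose by 2.51, 2.29 and 2.10 on the log2 scale, with standard errors of 0.0957, 0.0996 and 0.117. The largest adjusted p of these 4 genes was 1.5e-09. The 3 genes that fell were named after their values were seen. ERRFI1, an inhibitor of EGF receptor signalling, had a log2 fold change of -1.31, DUSP1 one of -0.89 and SGK1 one of -0.42. Their largest adjusted p was the 0.00937 of SGK1. The WT libraries of DUSP1 were far apart, at 220.4 and 410.2 CPM, against 162.2 and 177.3 CPM in HSF1-pLVX cells. SGK1 was at 108.0 and 152.3 CPM in WT and at 93.8 and 100.8 CPM in HSF1-pLVX cells. With DESeq2, 2 genes of the list were lower. The remaining 5 genes, PER1 and KLF9 among them, were not called. The activity of the glucocorticoid receptor was not measured, and its part in the change of FKBP5 was not tested. Without HSF1-pLVX replicate 2, 1 gene of the list was lower.

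Of 13 steroid receptors and transcription factors known as HSP90 clients, 9 were tested, 4 were higher, HSF1 among them, and 4 lower (44.4% each way, beside 32.7 and 33.2% of all tested genes), with a median log2 fold change of -0.04. HSF1, the introduced gene, is counted in the share called higher and in the median, and its rise was set by the design. The glucocorticoid receptor gene NR3C1, named after its value was seen, was at 81.7 ± 7.91 CPM in WT and 105.5 ± 5.35 in HSF1-pLVX cells (SD over 2 libraries), a log2 fold change (± SE) of 0.37 ± 0.092 (adjusted p = 0.0027). NR3C2, the mineralocorticoid receptor gene, went from 10.5 ± 0.15 to 0.21 ± 0.129 CPM, with 3 and 6 counts in the HSF1-pLVX libraries (log2 fold change -5.67, standard error 0.306, adjusted p = 1.12e-09). ESR1, the estrogen receptor gene, was low at 2.86 ± 0.395 CPM in WT and 8.95 ± 2.14 in HSF1-pLVX cells (log2 fold change 1.65, standard error 0.212, adjusted p = 8.39e-06). PPARG, a lipid-sensing nuclear receptor gene, had a log2 fold change of -0.88 (standard error 0.153, adjusted p = 0.000146).

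Of 28 kinases known as HSP90 clients, all tested, 10 were higher and 10 lower, 35.7% each way and close to the 32.7 and 33.2% of all tested genes, with a median log2 fold change of -0.01. The mitotic kinase genes CDK1, AURKB and PLK1 rose by 2.31, 2.17 and 1.92 on the log2 scale, and DAPK1, a death-associated kinase, fell by 1.87, with standard errors of 0.133, 0.152, 0.137 and 0.103. The largest adjusted p of the 4 was the 1.99e-08 of PLK1. Without HSF1-pLVX replicate 2, 6 kinases were lower. Of 11 other FK506-binding proteins, 10 were tested, 3 of the 10 were higher and 5 lower, beside 32.7 and 33.2% of all tested genes, with a median log2 fold change of -0.23. FKBP10, a collagen chaperone of the endoplasmic reticulum, rose by 1.30 on the log2 scale (standard error 0.0933), while FKBP1A, the cytosolic FKBP12, fell by 0.86 (standard error 0.093). FKBP2 and FKBP9, both of the endoplasmic reticulum, had log2 fold changes of -0.53 and -0.47, and the largest adjusted p of these 4 genes was 0.000214.

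**Figure D5:**
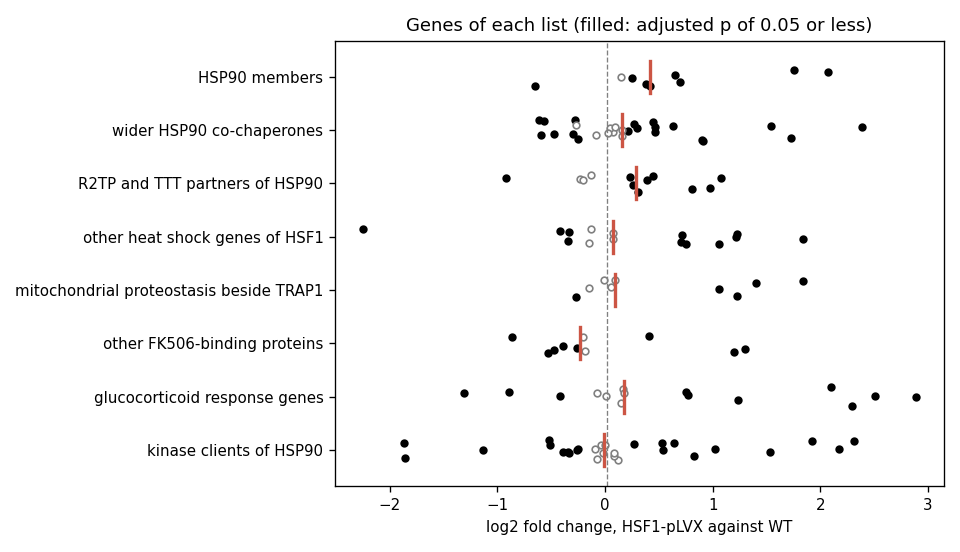
Log2 fold change of each tested gene of 8 lists, the 9 HSP90 genes first, between HSF1-pLVX and WT cells, filled where the adjusted p was 0.05 or less, with the list's median as a red bar and the median of all tested genes, 0.02, as a dashed line (UNC45B is left out of the points because its WT libraries hold 0 counts). The 9 HSP90 members have a median of 0.42, and each of the 8 lists, theirs included, holds genes called in both directions, as the whole comparison does.

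The genes whose profile over the 4 libraries was nearest to that of HSP90AA1, by Euclidean distance between centred log2 CPM, were ORAI2 (0.0282), AGAP1 (0.030) and ASB6 (0.0307). Since 884 genes outside the lists lay within a distance of 0.2, so close a match is common among 4 libraries of 2 variants.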

How the data were processed

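RNA-seq counts from 2 WT and 2 HSF1-pLVX libraries of MCF10A cells were analysed, grouped by the titles of the samples. Paired-end reads of 76 bases from ribosomal RNA-depleted total RNA were mapped to hg38 by the authors using HISAT2 2.0.5, processed with SAMtools 1.13 and assigned to genes with featureCounts 1.6.5 on GENCODE release 26. The authors deposited raw counts per gene and, for 22321 gene symbols, log2-like values normalized with DESeq2 1.32.0. How the counting treated strand, overlapping genes and multi-mapped reads is not given in the sources used here. The replicates are described as biological, with no further detail of separate cultures.

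Counts were fitted with edgeR 4.0.16 in R 4.3.3 (filterByExpr defaults, TMM normalization, quasi-likelihood test without a block), with Benjamini-Hochberg adjustment over 15830 genes and a call at an adjusted p of 0.05. The standard error is the log2 fold change divided by the root of the F statistic. A single value cannot pass an exact permutation test with 2 against 2 libraries, where the smallest p is 0.33, so the calls rest on a spread shared with other genes. On simulated counts of 15407 to 15421 genes the test recovered 87.9% of 2-fold changes and 3.23% of its calls were false. The simulation gave every gene the same dispersion, and over 3 draws 580 tested genes were changed. In the data 65.9% of tested genes were called, so these rates need not hold for the calls here. DESeq2 1.42.0 was an alternative.

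Symbols were matched by Ensembl gene ID and promoter sequences from RefSeq. Pseudogenes were found by symbol, as the gene's name (HSP90AA or HSP90AB for the paralogs) with a number and P. In each list, the up to 4 genes of largest absolute log2 fold change with a mean of at least 5 CPM are named. The members and lists were chosen with earlier results of these data known. Neither deposited table holds a comparison by the authors.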

Additional observations from a re-analysis of the deposited data

How the results depend on the processing

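The direction of all 9 genes was the same in each of the 108 values obtained under the alternatives. The calls of HSP90AA1, HSP90AB1, TRAP1, AHSA1, PTGES3 and FKBP5 were the same in every alternative with a test. With a 2-fold change added to the call, 2 genes were higher and 0 lower. STIP1 was no longer called with RLE scaling (log2 fold change 0.24, adjusted p = 0.0531), without a filter on low counts (0.24, adjusted p = 0.064) or with the replicate number as a block (0.25, adjusted p = 0.0607), and it ranged from 0.15 to 0.35 with each library left out. CDC37 was called with upper-quartile scaling (0.23) and library size alone (0.21). FKBP4 ranged from 0.27 to 0.50 with each library left out. The difference in the HSP90AA1 share was -19.3 percentage points per length and -22.5 from counts, a shift set by the lengths of the genes. For the wider lists, pooled counts are given for their change between alternatives and not as a result about the lists. They stand beside 32.7% of all tested genes higher and 33.2% lower in the main fit. Over the wider lists 53 genes were higher and 36 lower, and with each library left out the number lower lay between 20, without HSF1-pLVX replicate 2, and 34. Without that library the calls over all tested genes also went from 5175 to 3749 higher and from 5253 to 3820 lower, so the loss was not limited to the lists.

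Deviations of same-numbered libraries correlated at -0.0147 over all tested genes and -0.114 above 8 CPM, so the numbers were not taken to pair the libraries. The block gave 6 members higher and 1 lower, and a crossed block, added after seeing the data, 7 and 1. A fit that leaves out a library assumes that the lone library of its group varies like the others. Upper-quartile scaling gave 5792 genes higher and 4730 lower against 5175 and 5253. With 2 libraries per variant, the 95% interval of a change as small as that of CDC37 included 0.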
